A study of Homo sapiens with 6 samples.

Results

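The 30 genes described here encode enzymes that make cholesterol and fatty acids, together with regulators of these pathways. They were taken by name, as listed genes of the mevalonate, sterol and fatty acid pathways and of the SREBP system, and each matched 1 Ensembl gene ID among the 40396 of the deposited table. RNA-seq was performed on H1 cells, a human embryonic stem cell line, at day 3 of definitive endoderm (DE) differentiation on Matrigel. All 6 samples received 50 ng/ml activin A and, in the first 24 h, the Wnt activator CHIR99021 at 2.5 µM. Over the 3 days, 3 samples were given 0.5 µM saracatinib (SAR) and 3 control samples were given its solvent DMSO. SAR is known as an inhibitor of Src family kinases. In the study's western blots this dose did not effectively lower Src phosphorylation, but lowered that of focal adhesion kinase at some sites. H1 is a single line, and the sources do not say whether the libraries are separate cultures, so the p-values measure the spread between these libraries, which may be technical.

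Cholesterol is built from acetyl-CoA through mevalonate to farnesyl diphosphate, then through squalene and lanosterol to the finished sterol, and fatty acids are built from the same acetyl-CoA. Both routes are driven by the sterol regulatory element-binding proteins SREBP-1 and SREBP-2, which are made as membrane proteins, escorted to the Golgi by SCAP when sterol is low, and cut there to release the active factor. At their target promoters the SREBPs bind sterol regulatory elements and work together with NF-Y, which binds CCAAT boxes, and Sp1, which binds GC boxes.

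Promoter sequences are shown because these 3 motifs are the known shared wiring of the pathway. RefSeq windows on GRCh38.p14, from 250 bases before to 50 bases after the start of transcription, were matched by symbol for 26 of the 30 genes, with 36 windows in all. A CCAAT box (CCAAT on either strand, thus also ATTGG) lay in a window of 19 of the 26 genes (73.1%), against 42.9% of the 10744 tested genes with a window. It was found in 10 of the 12 matched genes that were lower with SAR and in 9 of the other 14. A GC box (GGGCGG on either strand) lay in 25 of the 26 genes (96.2%), against 77.0% of the tested genes. The sterol regulatory element, searched as TCACNCCAC on either strand, was found in 1 of the 26, SREBF2, and in 1.45% of the tested genes. Other forms of this element were not searched, and a match describes only the letters in the window. The 250 bases before the start are printed 5′ to 3′ on the strand of the gene, with CCAAT boxes and the sterol regulatory element in capitals, and no CCAAT box overlaps that element. The lines give the 6 matched genes with the smallest adjusted p-values, then FADS2, which had the largest, and SREBF2, added after its match was seen.
IDI1: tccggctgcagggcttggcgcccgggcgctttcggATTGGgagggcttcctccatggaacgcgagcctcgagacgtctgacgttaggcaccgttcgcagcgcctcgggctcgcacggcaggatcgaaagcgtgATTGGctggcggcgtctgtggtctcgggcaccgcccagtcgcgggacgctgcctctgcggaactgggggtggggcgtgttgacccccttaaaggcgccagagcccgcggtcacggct
HMGCS1: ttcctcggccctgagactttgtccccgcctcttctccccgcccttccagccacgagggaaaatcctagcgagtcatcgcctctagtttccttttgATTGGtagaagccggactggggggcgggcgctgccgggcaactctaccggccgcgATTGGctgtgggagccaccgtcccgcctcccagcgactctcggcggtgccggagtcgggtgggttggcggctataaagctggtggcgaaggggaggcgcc
HSD17B7: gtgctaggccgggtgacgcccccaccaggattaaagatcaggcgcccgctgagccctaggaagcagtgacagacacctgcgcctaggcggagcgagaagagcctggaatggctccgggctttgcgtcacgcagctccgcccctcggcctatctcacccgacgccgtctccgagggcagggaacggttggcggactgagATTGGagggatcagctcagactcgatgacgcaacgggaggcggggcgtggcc
MSMO1: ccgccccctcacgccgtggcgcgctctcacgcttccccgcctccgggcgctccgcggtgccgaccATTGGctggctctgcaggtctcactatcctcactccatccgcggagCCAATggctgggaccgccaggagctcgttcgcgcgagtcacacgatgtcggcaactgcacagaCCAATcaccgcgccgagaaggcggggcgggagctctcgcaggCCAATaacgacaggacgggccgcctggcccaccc
SREBF1: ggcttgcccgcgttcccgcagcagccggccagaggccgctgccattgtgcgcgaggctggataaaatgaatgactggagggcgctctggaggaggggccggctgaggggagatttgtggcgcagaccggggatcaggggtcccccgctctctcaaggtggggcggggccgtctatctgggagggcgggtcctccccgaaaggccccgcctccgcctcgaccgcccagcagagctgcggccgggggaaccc
ACACA: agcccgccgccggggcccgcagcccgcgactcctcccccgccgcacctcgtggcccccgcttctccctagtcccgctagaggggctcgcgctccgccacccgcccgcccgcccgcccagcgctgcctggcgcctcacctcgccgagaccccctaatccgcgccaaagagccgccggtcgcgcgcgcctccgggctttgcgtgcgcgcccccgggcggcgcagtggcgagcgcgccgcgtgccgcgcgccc
FADS2: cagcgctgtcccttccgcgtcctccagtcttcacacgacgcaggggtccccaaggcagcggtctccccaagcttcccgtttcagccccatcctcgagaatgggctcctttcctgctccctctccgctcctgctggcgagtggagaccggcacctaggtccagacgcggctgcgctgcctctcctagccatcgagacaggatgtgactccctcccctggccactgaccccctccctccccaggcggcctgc
SREBF2: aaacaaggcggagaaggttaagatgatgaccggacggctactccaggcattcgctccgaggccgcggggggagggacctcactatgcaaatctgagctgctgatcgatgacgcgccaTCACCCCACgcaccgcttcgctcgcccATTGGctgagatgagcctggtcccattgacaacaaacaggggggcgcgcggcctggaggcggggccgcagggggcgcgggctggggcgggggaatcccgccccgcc

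Of these stretches, MSMO1 (chr4:165327419-165327668, plus strand) holds 4 CCAAT boxes, while IDI1 (chr10:1049120-1049369, minus strand) and HMGCS1 (chr5:43313413-43313662, minus strand) hold 2 each. HSD17B7 (chr1:162790452-162790701, plus strand) and SREBF2 (chr22:41832855-41833104, plus strand) hold 1 each. SREBF1 (chr17:17836987-17837236, minus strand), ACACA (chr17:37406837-37407086, minus strand) and FADS2 (chr11:61815953-61816202, plus strand) hold 0, although ACACA and FADS2 have one in another of their windows.

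Expression is given as FPKM, fragments scaled by gene length and library total. The reads behind it, recovered from the table, came to 21905956, 24419937 and 18877964 in control replicates 1 to 3 and 16681280, 16945415 and 18389543 in SAR replicates 1 to 3. Every SAR library thus had fewer reads than every control library, and the part of depth in the changes was not tested. Each of the 30 genes reached the minimum mean of 0.5 FPKM, so all were among the 16371 genes tested with limma on log2(FPKM + 0.1), a scale that slightly understates the change of low genes. Gene positions are those of GENCODE 29 on GRCh38. Fold changes are SAR against control on this scale, and a gene is said to have risen or fallen at a Benjamini-Hochberg adjusted p-value under 0.05 over all tested genes, with no minimum size. In bulk RNA, fewer cells that express a gene and less of its RNA per cell cannot be told apart.

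With SAR, 16 of the 30 genes fell and 3 rose, where 9.55% of all tested genes fell and 23.7% rose. The genes that fell included 5 of the 7 of the mevalonate pathway, 7 of the 11 from squalene to cholesterol and 4 of the 7 of fatty acid and glycerolipid synthesis, but 0 of the 5 regulators and sterol transport genes. The 3 that rose were SREBF1 and, only before the rescaling described next, PMVK and TM7SF2. The changes were moderate, since 0 of the 30 also passed a log2 fold change of -1 and 0 passed 1, as 1.58% and 3.41% of all tested genes did. The median log2 fold change of the 30 genes was -0.35, and that of all tested genes was 0.12. In 20 of the 30 genes every SAR library lay below every control library, against 15.2% of tested genes, and in 3 every SAR library lay above, against 35.5%. Over the 30 genes the summed level was 1046 to 1205 FPKM in control libraries and 789.9 to 910.1 FPKM with SAR, or 75.0% of the control mean.

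**Figure D1:**
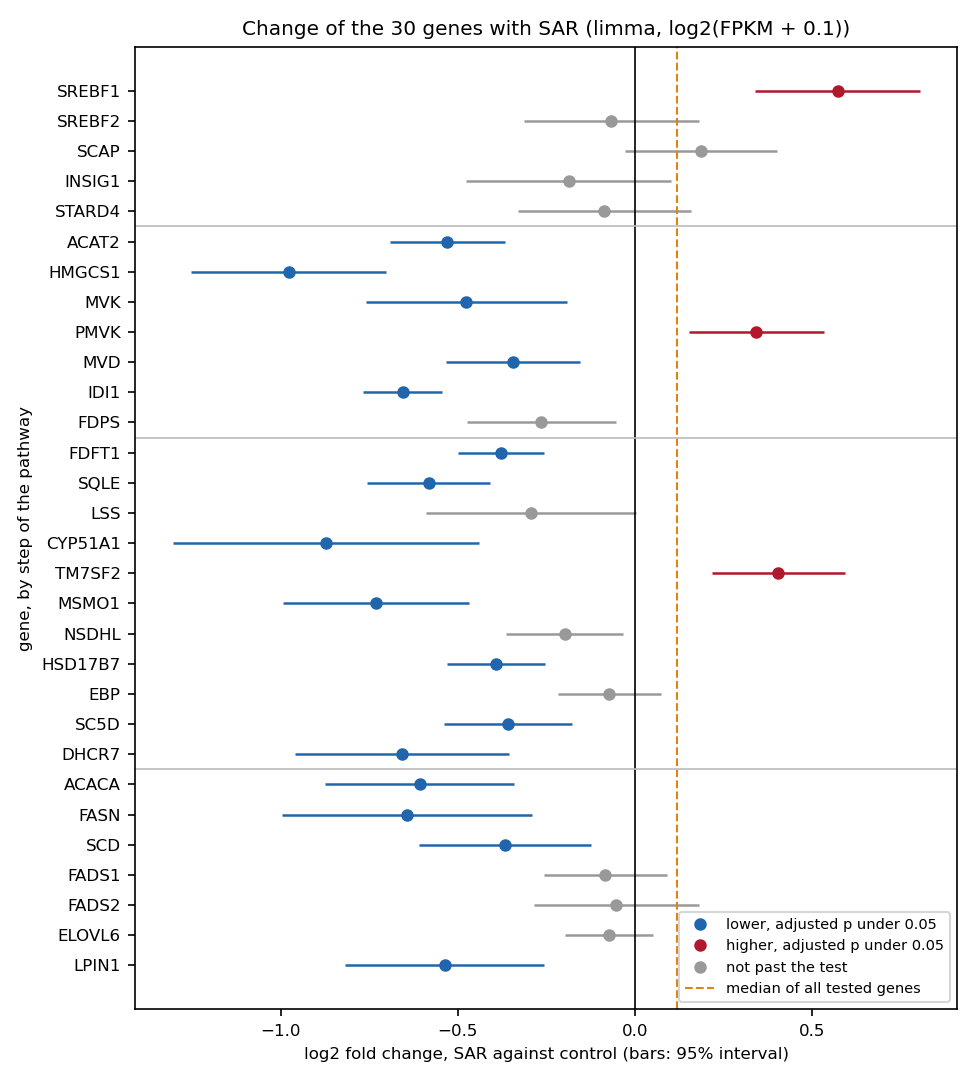
Log2 fold change (x axis) of each of the 30 genes in pathway order (y axis), SAR against control, 3 libraries per group, with bars for 95% intervals from limma, a dashed line at the median of all tested genes, and blue and red for genes that fell and rose at an adjusted p-value under 0.05. HMGCS1 is lowest at -0.98, and of the red points PMVK and TM7SF2 lose this call after median-ratio rescaling.

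Since the median gene stood at 0.12, each library was also rescaled by its median ratio to the others, which brought that median to -0.02. On this scale 19 of the 30 genes fell and 1, SREBF1, rose, against 15.5% and 12.6% of all tested genes. The median of the 30 genes was then -0.49. HMGCS1 and CYP51A1 passed -1, with -1.12 and -1.0002.

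The mevalonate pathway turns acetyl-CoA into the isoprenoid units of sterols. HMGCS1, the cytosolic HMG-CoA synthase, had the most negative change of the 30 genes on the deposited scale, while after quantile normalization CYP51A1 was lower (-1.07, against -0.996 for HMGCS1). HMGCS1 (ENSG00000112972, chr5:43289395-43313512) was at 71.3, 90.2 and 75.2 FPKM in control replicates 1 to 3 and 37.4, 36.9 and 45.7 FPKM in SAR replicates 1 to 3. Every SAR library was under every control library, and SAR replicate 3 was the nearest to them. The SAR mean was 50.7% of the control mean, with a log2 fold change of -0.98 (SE 0.12, limma, adjusted p = 0.00198). Of its exon bases 15.0% lie opposite an exon of AC114947.2 on the other strand.

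IDI1, the isomerase that interconverts the isoprenoid building blocks, had the smallest p-value of the 30 genes. IDI1 (ENSG00000067064, chr10:1039152-1049170) was at 33.2, 34.4 and 33.1 FPKM in control replicates 1 to 3 and 20.9, 21.4 and 21.6 FPKM in SAR replicates 1 to 3. The libraries of each group were close together and the groups lay far apart. The log2 fold change was -0.66 (SE 0.05, limma, adjusted p = 0.000432). Its antisense neighbor IDI2-AS1, which covers 14.8% of its exon bases on the other strand, was listed at 1.70, 1.83 and 1.80 FPKM in control replicates 1 to 3 and 0.555, 0.529 and 1.10 FPKM in SAR replicates 1 to 3. The authors' strand setting is not stated, so reads from a gene and an antisense partner cannot be told apart.

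ACAT2, the cytosolic thiolase that condenses acetyl-CoA at the head of the pathway, fell as well. ACAT2 (ENSG00000120437, chr6:159760328-159779055) was at 48.8, 54.1 and 50.1 FPKM in control replicates 1 to 3 and 36.6, 36.7 and 32.7 FPKM in SAR replicates 1 to 3. The groups did not overlap, and the log2 fold change was -0.53 (SE 0.07, limma, adjusted p = 0.00257). In this gene 52.3% of exon bases are also exon of genes on the other strand, among them TCP1, a chaperonin subunit. TCP1 was listed at 69.2, 62.2 and 68.6 FPKM in control replicates 1 to 3 and 55.7, 57.7 and 49.8 FPKM in SAR replicates 1 to 3.

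MVK, mevalonate kinase, was low. MVK (ENSG00000110921, chr12:109573255-109598117) was at 2.60, 2.97 and 2.45 FPKM in control replicates 1 to 3 and 1.93, 1.66 and 2.10 FPKM in SAR replicates 1 to 3. The groups did not overlap, and the log2 fold change was -0.48 (SE 0.12, limma, adjusted p = 0.0235). MVK did not pass without control replicate 1, control replicate 2, SAR replicate 1 or SAR replicate 2 (limma, adjusted p = 0.0501, 0.077, 0.0542 and 0.0682, log2 fold change -0.49, -0.40, -0.49 and -0.39). MVD, the decarboxylase that yields isopentenyl diphosphate, went from 20.3 ± 1.33 FPKM in control to 16.0 ± 1.34 FPKM with SAR (SD, n = 3) with a log2 fold change of -0.34 (SE 0.08, limma, adjusted p = 0.0181). MVD did not pass without control replicate 2 or SAR replicate 2 (limma, adjusted p = 0.0579 and 0.0591, log2 fold change -0.29 and -0.34). FDPS, which makes farnesyl diphosphate, went from 26.3 ± 2.29 FPKM in control to 21.9 ± 1.90 FPKM with SAR (SD, n = 3), but did not pass the test, with a log2 fold change of -0.26 (SE 0.09, limma, adjusted p = 0.0581). Its 95% interval ran from -0.48 to -0.05, while 8 pseudogenes of FDPS in GENCODE 29 could share its reads, and 18.6% of its exon bases lie opposite exons of RUSC1-AS1. FDPS passed without control replicate 1 (limma, adjusted p = 0.043, log2 fold change -0.33). It also passed after median-ratio rescaling, at -0.40 (limma, adjusted p = 0.0294), after quantile normalization (-0.30, limma, adjusted p = 0.0466) and with voom on recovered reads (-0.27, adjusted p = 0.0279).

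PMVK, phosphomevalonate kinase, acts between MVK and MVD and moved the other way. PMVK (ENSG00000163344, chr1:154924734-154936991) was at 13.8, 12.996 and 15.8 FPKM in control replicates 1 to 3 and 18.8, 17.6 and 17.5 FPKM in SAR replicates 1 to 3. All SAR libraries were above the control libraries. On the log2 scale it rose by 0.34 (SE 0.08, limma, adjusted p = 0.0188) as deposited, but did not pass after median-ratio rescaling, at 0.20 (limma, adjusted p = 0.116). PMVK did not pass without control replicate 1, control replicate 2, SAR replicate 1 or SAR replicate 2 (limma, adjusted p = 0.0516, 0.0554, 0.0567 and 0.0521, log2 fold change 0.33, 0.28, 0.31 and 0.36). The ratio of PMVK to MVK, a pair chosen after the values were seen, was 5.32, 4.37 and 6.43 in control replicates 1 to 3 and 9.73, 10.6 and 8.33 in SAR replicates 1 to 3.

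**Figure D2:**
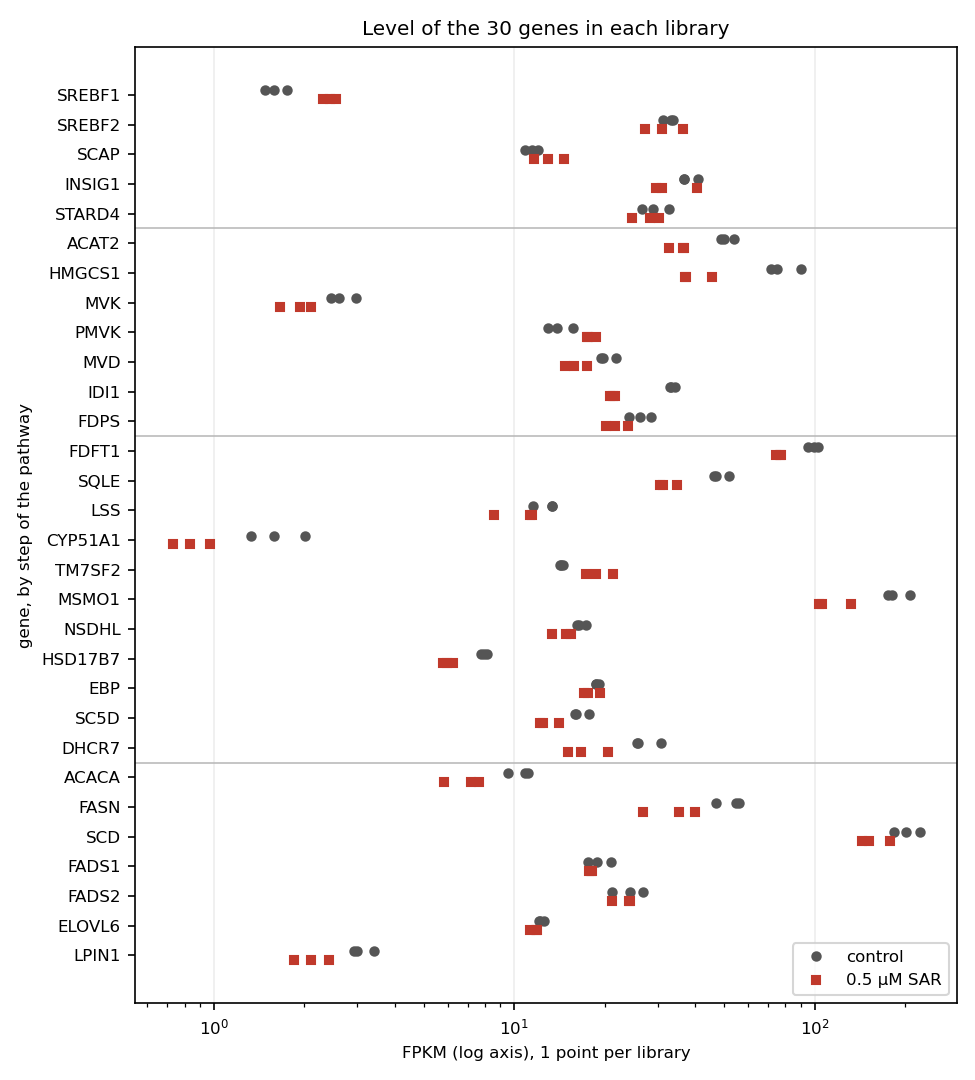
FPKM on a log axis (x axis) of the 30 genes in pathway order (y axis), with 1 point per library, gray circles for control and red squares for 0.5 µM SAR. In 20 genes the 3 squares lie left of all circles, in SREBF1, PMVK and TM7SF2 they lie right of them, and in 7 the groups overlap.

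From squalene to cholesterol, 7 of 11 genes fell. FDFT1, squalene synthase, makes the first committed sterol precursor. FDFT1 (ENSG00000079459) was at 94.99, 102 and 99.3 FPKM in control replicates 1 to 3 and 74.1, 76.5 and 77.5 FPKM in SAR replicates 1 to 3. The spread in each group was small beside the gap, and the log2 fold change was -0.38 (SE 0.05, limma, adjusted p = 0.00303). SQLE, squalene epoxidase, is a rate-limiting enzyme of this stretch. SQLE (ENSG00000104549) was at 46.2, 51.9 and 46.9 FPKM in control replicates 1 to 3 and 31.3, 30.6 and 34.9 FPKM in SAR replicates 1 to 3. No SAR library reached the control range, and the log2 fold change was -0.58 (SE 0.07, limma, adjusted p = 0.00238).

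MSMO1, the sterol C4-methyl oxidase, had the highest level of the sterol genes. MSMO1 (ENSG00000052802, chr4:165327623-165343160) was at 176, 208 and 181 FPKM in control replicates 1 to 3 and 106, 104 and 132 FPKM in SAR replicates 1 to 3. SAR replicate 3 was the highest SAR library and still below all control libraries. The log2 fold change was -0.73 (SE 0.11, limma, adjusted p = 0.00434). HSD17B7, the ketosteroid reductase of C4 demethylation, fell too. HSD17B7 (ENSG00000132196, chr1:162790702-162812817) was at 8.09, 7.95 and 7.74 FPKM in control replicates 1 to 3 and 5.99, 6.25 and 5.81 FPKM in SAR replicates 1 to 3. The groups did not overlap, the log2 fold change was -0.39 (SE 0.06, limma, adjusted p = 0.00411), and 2 pseudogenes could share its reads.

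DHCR7 catalyzes the last reduction of a branch that ends in cholesterol. DHCR7 (ENSG00000172893, chr11:71428193-71452868) was at 25.7, 30.8 and 25.8 FPKM in control replicates 1 to 3 and 15.1, 16.6 and 20.6 FPKM in SAR replicates 1 to 3. SAR replicate 3 was nearest to control, yet all SAR libraries were under the control libraries, and the log2 fold change was -0.66 (SE 0.13, limma, adjusted p = 0.00995). SC5D, the lathosterol desaturase, went from 16.6 ± 1.05 FPKM in control to 12.9 ± 0.994 FPKM with SAR (SD, n = 3) with a log2 fold change of -0.36 (SE 0.08, limma, adjusted p = 0.0139). SC5D did not pass without SAR replicate 2 (limma, adjusted p = 0.052, log2 fold change -0.33). CYP51A1, lanosterol demethylase, had the lowest listed level of the sterol genes. CYP51A1 (ENSG00000001630, chr7:92112151-92134803) was at 1.33, 2.01 and 1.59 FPKM in control replicates 1 to 3 and 0.730, 0.836 and 0.971 FPKM in SAR replicates 1 to 3. These values rest on 43 to 173 reads per library, and 79.4% of the exon bases are shared with other gene entries on the same strand, of which AC000120.2 was listed at 0 to 0.0132 FPKM. The groups did not overlap, and the log2 fold change was -0.87 (SE 0.18, limma, adjusted p = 0.0128).

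LSS, lanosterol synthase, was at 12.8 ± 1.06 FPKM in control and 10.5 ± 1.63 FPKM with SAR (SD, n = 3), with every SAR library below the control libraries, but did not pass the test, with a log2 fold change of -0.29 (SE 0.13, limma, adjusted p = 0.112) and a 95% interval from -0.59 to 0.004. NSDHL, which acts in the same C4 demethylation as HSD17B7, was at 16.7 ± 0.610 FPKM in control and 14.5 ± 1.07 FPKM with SAR (SD, n = 3) and did not pass either, with a log2 fold change of -0.20 (SE 0.07, limma, adjusted p = 0.0651) and a 95% interval from -0.36 to -0.03. It passed after median-ratio rescaling, at -0.34 (limma, adjusted p = 0.0238), and after quantile normalization (-0.24, limma, adjusted p = 0.0438). EBP, the sterol isomerase, overlapped between the groups and was at 18.9 ± 0.241 FPKM in control and 18.0 ± 1.16 FPKM with SAR (SD, n = 3), with a log2 fold change of -0.07 (SE 0.06, limma, adjusted p = 0.387) and a 95% interval from -0.22 to 0.07.

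TM7SF2, a sterol reductase of the endoplasmic reticulum, moved the other way. TM7SF2 (ENSG00000149809, chr11:65111845-65116384) was at 14.5, 14.2 and 14.3 FPKM in control replicates 1 to 3 and 21.3, 18.7 and 17.4 FPKM in SAR replicates 1 to 3. The control libraries lay within a narrow range and all SAR libraries above it. On the log2 scale it rose by 0.41 (SE 0.08, limma, adjusted p = 0.0103) as deposited, and did not pass after median-ratio rescaling, at 0.27 (limma, adjusted p = 0.0569). The ratio of TM7SF2 to CYP51A1, again chosen after the values were seen, was 10.9, 7.09 and 8.99 in control replicates 1 to 3 and 29.1, 22.4 and 17.9 in SAR replicates 1 to 3. Its size depends on how reads in the shared exons of CYP51A1 were counted.

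The genes for the first committed steps of fatty acid synthesis fell. ACACA, acetyl-CoA carboxylase, makes the malonyl-CoA that is polymerized. ACACA (ENSG00000278540, chr17:37084988-37406818) was at 9.55, 10.8 and 11.1 FPKM in control replicates 1 to 3 and 5.83, 7.18 and 7.62 FPKM in SAR replicates 1 to 3. All SAR libraries were lower, and the log2 fold change was -0.61 (SE 0.11, limma, adjusted p = 0.00855). FASN, fatty acid synthase, builds palmitate from it. FASN (ENSG00000169710, chr17:82078333-82098332) was at 47.0, 56.1 and 54.8 FPKM in control replicates 1 to 3 and 26.7, 35.3 and 40.0 FPKM in SAR replicates 1 to 3. All SAR libraries lay below the control libraries. The log2 fold change was -0.64 (SE 0.15, limma, adjusted p = 0.0177). FASN did not pass without control replicate 2 or control replicate 3 (limma, adjusted p = 0.0583 and 0.0623, log2 fold change -0.60 and -0.61).

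SCD, the desaturase that makes monounsaturated fatty acids, had the highest level of all 30 genes. SCD (ENSG00000099194, chr10:100347124-100364834) was at 184, 224 and 202 FPKM in control replicates 1 to 3 and 144, 151 and 178 FPKM in SAR replicates 1 to 3. The highest SAR library came close to the lowest control library, and the log2 fold change was -0.37 (SE 0.10, limma, adjusted p = 0.0337). SCD did not pass without control replicate 2, control replicate 3, SAR replicate 1 or SAR replicate 2 (limma, adjusted p = 0.0969, 0.0919, 0.0928 and 0.102, log2 fold change -0.30, -0.37, -0.30 and -0.34). LPIN1, a phosphatidate phosphatase of glycerolipid synthesis, was at 3.12 ± 0.268 FPKM in control and 2.12 ± 0.288 FPKM with SAR (SD, n = 3) with a log2 fold change of -0.54 (SE 0.12, limma, adjusted p = 0.0155). LPIN1 did not pass without control replicate 2 (limma, adjusted p = 0.0533, log2 fold change -0.47).

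Enzymes of elongation and polyunsaturation did not pass the test as deposited. ELOVL6, which elongates palmitate, was at 12.3 ± 0.263 FPKM in control and 11.7 ± 0.319 FPKM with SAR (SD, n = 3) with a log2 fold change of -0.07 (SE 0.05, limma, adjusted p = 0.309), and its 95% interval ran from -0.20 to 0.05. After median-ratio rescaling it did pass, at -0.21 (limma, adjusted p = 0.0362). FADS1, a front-end desaturase, was at 19.1 ± 1.75 FPKM in control and 18.0 ± 0.224 FPKM with SAR (SD, n = 3) with a log2 fold change of -0.08 (SE 0.07, limma, adjusted p = 0.4) and a 95% interval from -0.26 to 0.09. FADS2, which acts before FADS1, was at 24.1 ± 2.80 FPKM in control and 23.2 ± 1.68 FPKM with SAR (SD, n = 3) with a log2 fold change of -0.05 (SE 0.10, limma, adjusted p = 0.702) and a 95% interval from -0.28 to 0.18, and its estimate turned to 0.027 without control replicate 2 and 0.0088 without SAR replicate 1. These 2 genes overlap on opposite strands. The ratio of FASN to ELOVL6, chosen after the values were seen, was 3.73, 4.61 and 4.52 in control replicates 1 to 3 and 2.24, 2.99 and 3.53 in SAR replicates 1 to 3.

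Among the regulators, SREBF1, which encodes SREBP-1, was the only gene of the 30 that rose on both scales. SREBF1 (ENSG00000072310, chr17:17810399-17837002) was at 1.76, 1.59 and 1.48 FPKM in control replicates 1 to 3 and 2.32, 2.54 and 2.44 FPKM in SAR replicates 1 to 3. No SAR library overlapped the control range, and the log2 fold change was 0.57 (SE 0.10, limma, adjusted p = 0.00647), or 0.44 (limma, adjusted p = 0.0147) after rescaling. SREBF2, which encodes SREBP-2, overlapped between the groups. SREBF2 (ENSG00000198911, chr22:41833079-41907308) was at 31.3, 33.7 and 33.3 FPKM in control replicates 1 to 3 and 27.2, 31.0 and 36.3 FPKM in SAR replicates 1 to 3. SAR libraries lay on both sides of the control range, with a log2 fold change of -0.07 (SE 0.10, limma, adjusted p = 0.646) and a 95% interval from -0.31 to 0.18, and its estimate turned to 0.034 without SAR replicate 1. The ratio of SREBF1 to SREBF2, a further pair chosen after the values were seen, was 0.0561, 0.0471 and 0.0445 in control replicates 1 to 3 and 0.0852, 0.0822 and 0.0672 in SAR replicates 1 to 3.

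INSIG1, which holds SCAP back when sterol is plentiful, is itself a known SREBP target. INSIG1 (ENSG00000186480, chr7:155297776-155310235) was at 36.8, 41.0 and 36.7 FPKM in control replicates 1 to 3 and 31.0, 29.7 and 40.6 FPKM in SAR replicates 1 to 3. SAR replicate 3 stood at the level of the control libraries and the other two below them. The log2 fold change was -0.19 (SE 0.12, limma, adjusted p = 0.268), and without SAR replicate 3 it was -0.33 (limma, adjusted p = 0.018). SCAP was at 11.4 ± 0.541 FPKM in control and 13.1 ± 1.49 FPKM with SAR (SD, n = 3) with a log2 fold change of 0.19 (SE 0.09, limma, adjusted p = 0.152) and a 95% interval from -0.03 to 0.40. STARD4, a cytosolic sterol carrier, was at 29.5 ± 3.06 FPKM in control and 27.7 ± 2.89 FPKM with SAR (SD, n = 3) with a log2 fold change of -0.09 (SE 0.10, limma, adjusted p = 0.544) and a 95% interval from -0.33 to 0.16.

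**Figure D3:**
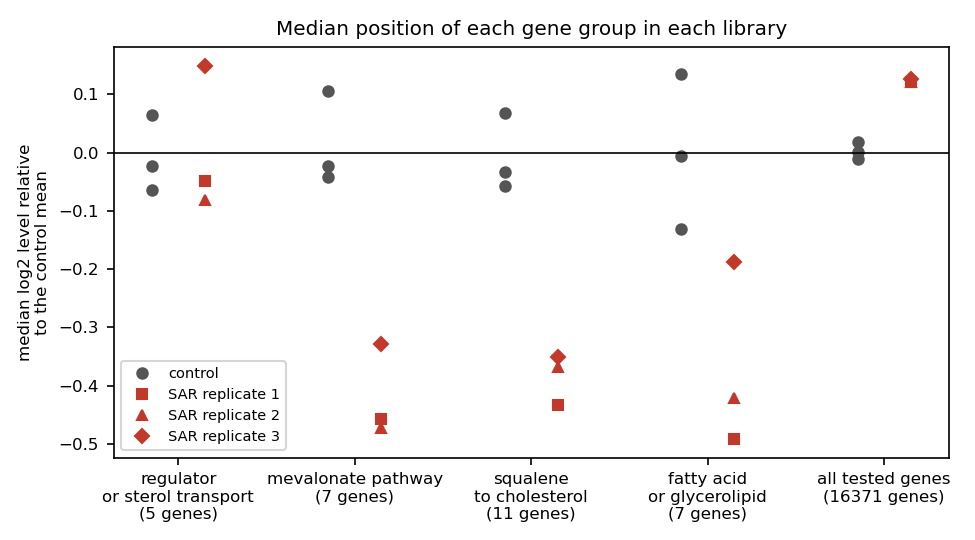
Median log2 level relative to the control mean (y axis) of each role group of the 30 genes and of all tested genes (x axis), with 1 point per library. The 3 synthesis groups lie lower in every SAR library than in every control library, while the regulators overlap and all tested genes lie between 0.12 and 0.13 with SAR.

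By library, the median of the 30 genes relative to the control mean was -0.06, 0.10 and -0.02 on the log2 scale in control replicates 1 to 3 and -0.42, -0.36 and -0.26 in SAR replicates 1 to 3. The 2 groups thus did not overlap, and SAR replicate 3 was the nearest to control. Summed FPKM with SAR was 68.0% of the control mean for the mevalonate genes, 71.1% for the genes from squalene on, 78.0% for the fatty acid and glycerolipid genes and 95.7% for the regulators and sterol transport genes. The differences between these shares were not tested.

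A further 81 lipid genes were listed in 5 groups, and 75 were tested. Of these, 16 rose and 13 fell as deposited, with 23.7% and 9.55% among all tested genes, and 6 rose and 21 fell after median-ratio rescaling, so the split depends on the scale. Their median log2 fold change was 0.04 as deposited and -0.10 after rescaling. Among 18 tested genes of other SREBP-responsive lipid metabolism, 3 rose and 6 fell, or 1 and 7 after rescaling. MID1IP1, which promotes acetyl-CoA carboxylase activity, was at 29.8, 32.1 and 31.9 FPKM in control replicates 1 to 3 and 21.4, 22.7 and 20.5 FPKM in SAR replicates 1 to 3, with a log2 fold change of -0.54 (SE 0.06, limma, adjusted p = 0.00164). LPIN2, a paralog of LPIN1, was at 3.79, 4.39 and 4.01 FPKM in control replicates 1 to 3 and 8.79, 8.13 and 8.73 FPKM in SAR replicates 1 to 3, with a log2 fold change of 1.06 (SE 0.07, limma, adjusted p = 0.000429). LPIN1 and LPIN2 thus passed the test in opposite directions.

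The counts of the other 4 lists stand beside 23.7% risen and 9.55% fallen among all tested genes as deposited, and 12.6% and 15.5% after rescaling, and nothing is read from counts near these shares. Of 11 genes that process or turn over SREBPs, 2 rose and 2 fell, or 0 and 3 after rescaling, and of 14 genes of the isoprenoid branch, 1 rose and 1 fell, or 0 and 2. Among 15 tested genes of sterol efflux, esterification and LXR response, 4 rose and 2 fell, or 3 and 5 after rescaling. NPC1 and NPC2, which carry cholesterol out of the lysosome, both fell. NPC1 was at 6.95, 6.91 and 6.82 FPKM in control replicates 1 to 3 and 4.49, 4.69 and 5.14 FPKM in SAR replicates 1 to 3, with a log2 fold change of -0.52 (SE 0.07, limma, adjusted p = 0.00272). NPC2 was at 89.0, 90.3 and 80.2 FPKM in control replicates 1 to 3 and 68.2, 61.0 and 56.8 FPKM in SAR replicates 1 to 3, with a log2 fold change of -0.48 (SE 0.08, limma, adjusted p = 0.00663). MYLIP, a ubiquitin ligase for lipoprotein receptors, was at 5.05, 5.96 and 4.85 FPKM in control replicates 1 to 3 and 8.10, 7.99 and 9.06 FPKM in SAR replicates 1 to 3, with a log2 fold change of 0.66 (SE 0.10, limma, adjusted p = 0.00382). Of 17 tested genes of fatty acid oxidation, 6 rose and 2 fell, or 2 and 4 after rescaling. CPT1C, a brain-type carnitine palmitoyltransferase, was at 3.99, 3.78 and 4.15 FPKM in control replicates 1 to 3 and 7.19, 7.44 and 7.68 FPKM in SAR replicates 1 to 3, with a log2 fold change of 0.89 (SE 0.06, limma, adjusted p = 0.000458). ECHS1, an enoyl-CoA hydratase of mitochondria, was at 85.4, 81.1 and 83.6 FPKM in control replicates 1 to 3 and 114, 112 and 99.8 FPKM in SAR replicates 1 to 3, with a log2 fold change of 0.38 (SE 0.07, limma, adjusted p = 0.00663).

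**Figure D4:**
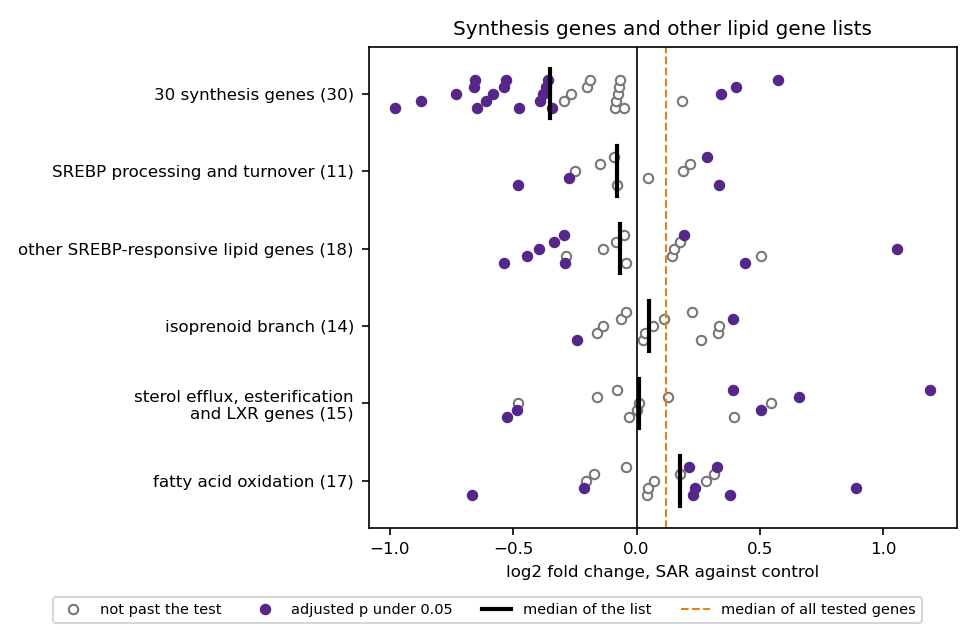
Log2 fold change (x axis), SAR against control, of the 30 genes and of the tested genes of 5 further lipid lists (y axis), with filled points past an adjusted p-value of 0.05, black bars for list medians and a dashed line for the median of all tested genes. Of the 30 genes 26 lie left of 0, while the further lists spread to both sides, with a median of 0.04 over their 75 genes as deposited (-0.10 after median-ratio rescaling).

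Markers of cell types were read beside these results, with the same 23.7% risen and 9.55% fallen among all tested genes as background. Of 10 DE markers, 3 rose and 6 fell, and the summed level went from 3947 to 5047 FPKM in control libraries to 2026 to 2091 FPKM with SAR, of which CER1, a secreted inhibitor, made up most. FOXA2 rose by 1.44 and GSC, EOMES and CER1 changed by -1.48, -1.36 and -1.28 (log2, adjusted p = 0.000107, 0.000382, 0.000674 and 0.000683, limma). HHEX and SOX17, named after their values were seen, also rose, by 1.03 and 1.06. GATA4, GATA6 and CXCR4, named in the same way, also fell, with changes of -1.05, -0.58 and -0.51. Of 8 pluripotency markers, 3 rose and 1, NANOG, fell, or 1 and 1 after median-ratio rescaling, with sums of 858 to 961 and 1058 to 1070 FPKM. NANOG changed by -1.30, and SOX2, LIN28A and TDGF1 rose by 0.88, 0.20 and 0.20 (log2, adjusted p = 0.000672, 0.0153, 0.0267 and 0.047, limma). After rescaling only SOX2 of these 3 still rose, by 0.74 (limma, adjusted p = 0.02). Of 10 mesoderm markers 5 were tested, 2 rose and 2 fell, with sums of 62.9 to 65.7 and 39.0 to 51.2 FPKM, while MESP1, MSGN1 and FOXF1 were listed at or near 0. MIXL1 made up most of the control sum and went from a mean of 44.7 FPKM in control to 17.8 FPKM with SAR. TBXT, in contrast, rose by 1.69 (log2, limma, adjusted p = 0.000574). Of 7 neural ectoderm markers 2 were tested and 0 passed, with sums of 212 to 225 and 209 to 221 FPKM, while PAX6, SOX1, ZIC1 and HES5 were listed at or near 0. The part of these shifts in the lower lipid synthesis genes was not tested.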

How the data were processed

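RNA-seq of H1 cells at day 3 of DE differentiation was analysed for 3 control and 3 SAR samples, grouped by their labels. The authors deposited FPKM per Ensembl gene for each library, without pooling. The submitters' processing notes name HISAT2, featureCounts (Subread), DESeq2 and GRCh38.p13, while versions, annotation release and strand setting are not given in the sources used here. FPKM are not counts, so limma 3.58.1 (R 4.3.3, eBayes with an intensity trend) was run on log2(FPKM + 0.1). Genes averaging under 0.5 FPKM were left out, which left 16371, with Benjamini-Hochberg adjustment over all of them and no replicate block. The study's additional threshold was an absolute log2 fold change above 1.

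Whole reads were recovered from the FPKM steps for 16361 of the 16371 tested genes (99.94%, within 0.01 read), with 16681280 to 24419937 reads per library. Within a group, pairs of libraries differed by 4.38 to 13.9 in chi-square per gene, so no library was a duplicate. Overlaps and pseudogenes came from GENCODE 29, and promoters from RefSeq on GRCh38.p14, without entries for ACAT2, FASN, FDFT1 and SQLE. For 6431 of the 16361 genes with whole reads, the length behind the FPKM equaled the GENCODE 29 exon total. Overlap shares may thus not describe the exons that the authors counted. For a gene with several windows, the window nearest its 5′ end in GENCODE 29 was printed, and shares of genes used any window.

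All 30 genes could be named, with the 8 smallest adjusted p-values of the further lipid lists (1 of these is not reported here), up to 4 genes of each marker list and those said to be chosen afterwards. The genes and lists were chosen with earlier results of these data known. Same-numbered control and SAR libraries were not treated as pairs in the main fit. Alternatives were a replicate block, median-ratio rescaling, leaving out each library in turn, a pseudocount of 1 or 0.01, a filter at 1 FPKM or none, an eBayes fit without the trend, quantile normalization and, added after seeing the data, voom on the recovered reads.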

Additional observations from a re-analysis of the deposited data

How the results depend on the processing

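Of the 30 genes, the count that fell was 14 to 19 under the alternatives that kept all libraries, with 17 under voom on recovered reads, and the count that rose was 3 except for 1 after median-ratio rescaling. That rescaling gave 2 genes past a log2 fold change of -1, a median of -0.49, and 6 further lipid genes that rose and 21 that fell. Without a filter 9 further lipid genes rose, where 40396 genes were tested. After quantile normalization 1 of the 30 genes passed -1. With each library left out in turn, 11 to 17 of the 30 fell, 2 to 3 rose, 0 to 2 passed -1 and 0 passed 1, the median was -0.38 to -0.29, and 7 to 15 further lipid genes rose and 7 to 12 fell. Genes passed -1 without control replicate 1 (2), control replicate 3 (1) or SAR replicate 3 (1). The lowest counts of further lipid genes, 7 and 7, came without control replicate 3, and 10 rose and 8 fell without control replicate 2 and without SAR replicate 2. The estimate of FADS2 was then -0.14 to 0.027, above 0 without control replicate 2 (0.027) and without SAR replicate 1 (0.0088), and that of SREBF2 was -0.17 to 0.034, above 0 without SAR replicate 1 (0.034). Neither passed the test. SCD lost its call without the filter (adjusted p = 0.089, limma) and without the intensity trend (0.0602), and MVK without the filter (0.0585). With a replicate block, 17 of the 30 fell and 3 rose, with 15 of the 16 shared; MVK did not pass (0.0553), and FDPS (0.021) and LSS (0.0327) did. In the labels, same-numbered libraries share only a number. The correlations of their deviations over all tested genes were 0.073, 0.003 and 0.025, and those of the other pairs ran from -0.083 to 0.067. The 0.073 of replicate 1 was the highest, and control replicate 2 correlated best with SAR replicate 3 (0.067). Correlations this near 0 do not decide whether libraries were paired. The causes of these changes were not tested. CYP51A1 had the fewest reads of the 30 genes, 43 to 173 per library.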

Other observations

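Some further lipid genes were named here only after their values were seen. ABCG1, which exports cholesterol to lipoproteins, was at 0.619, 0.368 and 0.493 FPKM in control replicates 1 to 3 and 1.32, 1.17 and 1.22 FPKM in SAR replicates 1 to 3, with a log2 fold change of 1.19 (SE 0.21, limma, adjusted p = 0.0067). NR1H3, which encodes the sterol sensor LXR-alpha, was at 2.32, 2.03 and 2.24 FPKM in control replicates 1 to 3 and 3.44, 3.14 and 2.91 FPKM in SAR replicates 1 to 3, with a log2 fold change of 0.51 (SE 0.09, limma, adjusted p = 0.00875). ACLY, which makes cytosolic acetyl-CoA for both synthesis routes, was at 87.2, 102 and 98.5 FPKM in control replicates 1 to 3 and 69.4, 71.5 and 78.0 FPKM in SAR replicates 1 to 3, with a log2 fold change of -0.39 (SE 0.08, limma, adjusted p = 0.0106). The groups did not overlap in any of these 3 genes, and each passed the test after median-ratio rescaling as well, at 1.07, 0.37 and -0.53 on the log2 scale (limma, adjusted p = 0.0091, 0.0248 and 0.00824). ACLY does not stand for the other SREBP-responsive lipid genes, of which 9 of 18 tested did not pass as deposited. Nor do ABCG1 and NR1H3 stand for the sterol efflux, esterification and LXR list, in which 9 of 15 tested genes did not pass as deposited. Among the 9 of the LXR list, also named after their values were seen, were the LXR-beta gene NR1H2, at -0.08 (limma, adjusted p = 0.28), the transporter gene ABCA1, an LXR target, at -0.03 (limma, adjusted p = 0.819), and ABCG4, at -0.48 (limma, adjusted p = 0.051). After median-ratio rescaling NR1H2 and ABCG4 did fall, at -0.22 and -0.60 (limma, adjusted p = 0.0427 and 0.0281). ABCA1 did not pass there either, at -0.17 (limma, adjusted p = 0.226).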
